A study of Liolophura hirtosa with 16 samples.

Results

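Gene expression in the iron-deposited section of the chiton radula was compared with that in the immature section, over the 8 arrays whose titles name one of these sections, of 16 arrays in the study. The animal was Acanthopleura hirtosa, which the labels name Liolophura hirtosa. The radulae of 12 adults taken from the wild were cut into sections with immature, iron-deposited and calcium-deposited teeth, and foot muscle was sampled as well. RNA from 3 animals was pooled in equal parts for each array, extracted with Trizol and labelled with Cy5 by the Kreatech ampULSe kit, so that the iron-deposited section and the immature section each had 4 pools on 4 single-colour arrays. The labels describe each section as radula sac, the soft tissue that forms and mineralizes the teeth, so that a section is a stage of teeth along a ribbon and a mixture of cells. No treatment is given, and no age beyond adult.

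A chiton radula is a conveyor of tooth rows. New rows are laid down at the posterior end as a scaffold rich in chitin, and the rows move forward as older teeth wear away. In the major lateral teeth the epithelium around each cusp delivers iron, which chitons store in ferritin, and an iron oxide of ferrihydrite type is laid down on the scaffold and then turned into magnetite, the hard magnetic mineral of the working edge. Calcium minerals fill the core of the tooth at a later stage. The comparison thus sets tissue around teeth that are taking up iron beside tissue around teeth that are still unmineralized, and it is the first step between successive sections in the design.

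The arrays carried 2240 oligonucleotide probes, with a median length of 35 nt, on 493 chiton sequences, of which 109 were contigs and 384 were single clones. No source used here pairs a sequence with a gene name, so that ferritin, chitin synthase or any other gene could not be looked up, the sections could not be checked against cell markers, and sequences are called by their deposited names. Positions are bases within the deposited sequence, counted from 1, and not places in a genome. Values are log2 of the deposited value, which is the brightness of a probe over the mean brightness of its array, after quantile normalization over all 16 arrays. On this scale the median probe lay at −1.51, the 5th percentile at −2.13 and the 95th at 1.46. No background was recorded, so that a fold is a ratio of brightness that still holds background. Wherever one of the sections is dim it understates the ratio of RNA, by how much is not known, and a value near −2 cannot be told from no RNA. The median brightness of the 8 arrays lay between 212 and 426 units, 5 spots, all on Contig[0011], were saturated, and 4 arrays a section limit the precision of every value.

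The identity of 4 arrays is disputed between the deposited sources. The columns of the authors' value table for immature replicates 2 and 4 matched the scanner files recorded for calcium-deposited replicates 2 and 4, and the reverse. The value table was followed here. In it, immature replicate 2 correlated across probes at 0.974 to 0.985 with the undisputed immature arrays and at 0.724 to 0.770 with the undisputed calcium-deposited arrays. For immature replicate 4 these values were 0.974 to 0.975 and 0.717 to 0.768. Counts of called probes and sequences, and the differences of the leading sequences, are given also without the 4 disputed arrays. That leaves 4 iron-deposited against 2 immature arrays. They are given as well with the scanner files as recorded. The stricter set of sequences described below was drawn from the value table with all arrays only.

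Transcripts on many sequences differed between the sections, in both directions. Of 2240 probes, 283 (12.6%) were higher and 223 (9.96%) lower in iron-deposited teeth when set against immature teeth, 22.6% in all, at an adjusted p under 0.05 (limma, Benjamini-Hochberg over all probes, the rule for a call throughout). Past 2-fold there were 114 higher and 110 lower probes. The median difference of all probes, iron-deposited minus immature, was −0.0032 and the quartiles were −0.09 and 0.09. Without further scaling of the deposited values the median was 0.039. Taken without regard to sign, the median difference was 0.04 among the 560 probes dimmest by mean level. Among the 560 brightest it was 0.31. Background understates the change at dim probes, so that these values do not show that most transcripts differed little. Quantile normalization gives every array the same distribution, so that the balance of higher and lower calls depends on the scaling: without further scaling of the deposited values 242 probes were higher and 144 lower, on 61 higher and 35 lower sequences. In bulk tissue, fewer cells of a type and less RNA per cell cannot be told apart. Without the disputed arrays 234 probes were higher and 197 lower, and 424 of these 431 were among the calls above. With the scanner files as recorded 153 were higher and 25 lower.

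The arrays of a section lay close together. Across probes the correlation was 0.969 to 0.985 among iron-deposited arrays and 0.973 to 0.990 among immature arrays, against 0.772 to 0.815 between the sections. The median SD of a probe was 0.122 in iron-deposited and 0.123 in immature teeth. All 4 iron-deposited arrays lay above all 4 immature arrays at 311 probes (13.9%) and below them at 236 (10.5%). Of the called probes, 271 higher and 210 lower ones were separated in this way, and 504 of 506 differed in the called direction in all 4 pairs of arrays with the same replicate number. A call asks for a difference that is large beside the spread of these same arrays. The counts among called probes thus largely follow from the call and are no separate support.

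**Figure D1:**
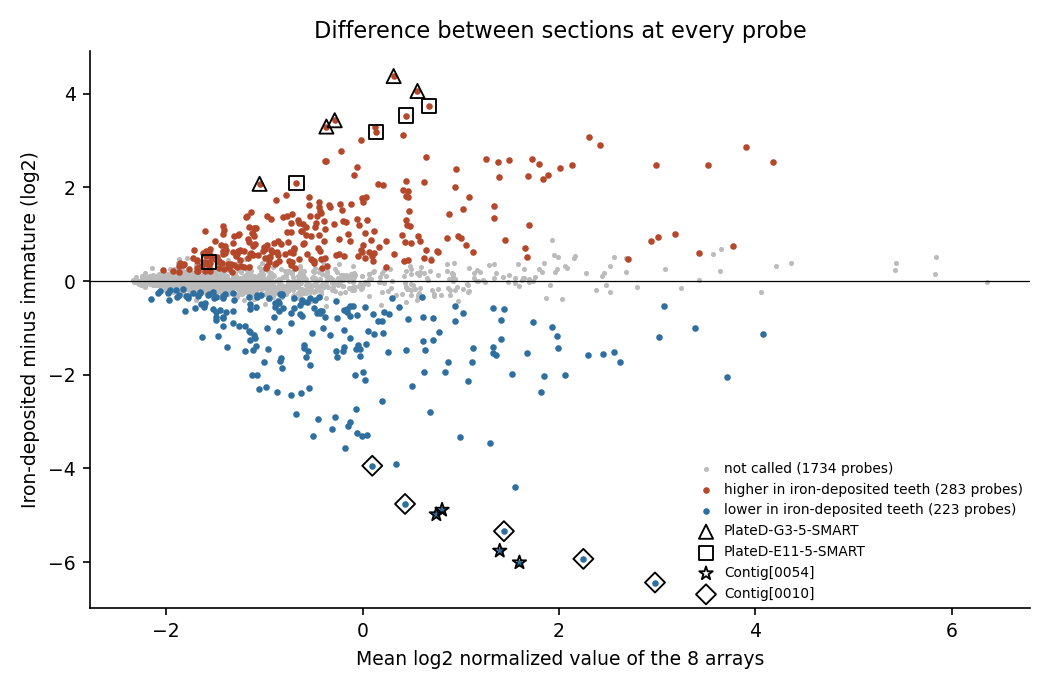
Each point is 1 of 2240 probes, with its mean log2 normalized value over the 8 arrays on the x axis and its difference, iron-deposited minus immature, in log2 on the y axis. Red probes (283) were called higher and blue probes (223) lower in iron-deposited teeth, and open symbols mark the probes of PlateD-G3-5-SMART, PlateD-E11-5-SMART, Contig[0054] and Contig[0010], of which the contigs reach differences of −6.01 and −6.44.

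Because probes on one sequence share a target, the same fit was made on the mean over the probes of each sequence. It called 149 of 493 sequences (30.2%), 85 (17.2%) higher and 64 (13.0%) lower in iron-deposited teeth. The median difference was 0.57 among the higher sequences and −0.68 among the lower ones. The sizes ran from 0.14 to 3.45 among the higher sequences and from 0.11 to 5.41 among the lower ones. Past a log2 difference of 1 there were 21 higher and 23 lower sequences and past 2 there were 8 in each direction. The lower side reached farther, with 3 sequences past 3 and 2 past 4, against 1 and 0 on the higher side. Without the disputed arrays 71 sequences were higher and 53 lower, and with the files as recorded 45 and 13.

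A stricter view takes the 471 sequences with 3 or more probes and asks that every probe be called in one direction with the arrays of the sections separated at each of them. It left 52 sequences, 27 higher and 25 lower in iron-deposited teeth. The higher ones were 12 contigs and 15 clones, and the lower ones 18 contigs and 7 clones. By the median over their probes, the 27 higher sequences differed by 0.44 to 3.43 (median 1.30), with 19 past 2-fold, 9 past 4-fold and 2 past 8-fold. The 25 lower sequences differed by −0.63 to −5.37 (median −1.56), with 22 past 2-fold, 8 past 4-fold and 4 past 8-fold. Every probe was past 2-fold in 9 of the 27 and in 13 of the 25. The 2 sequences at each end of this order are described next.

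**Figure D2:**
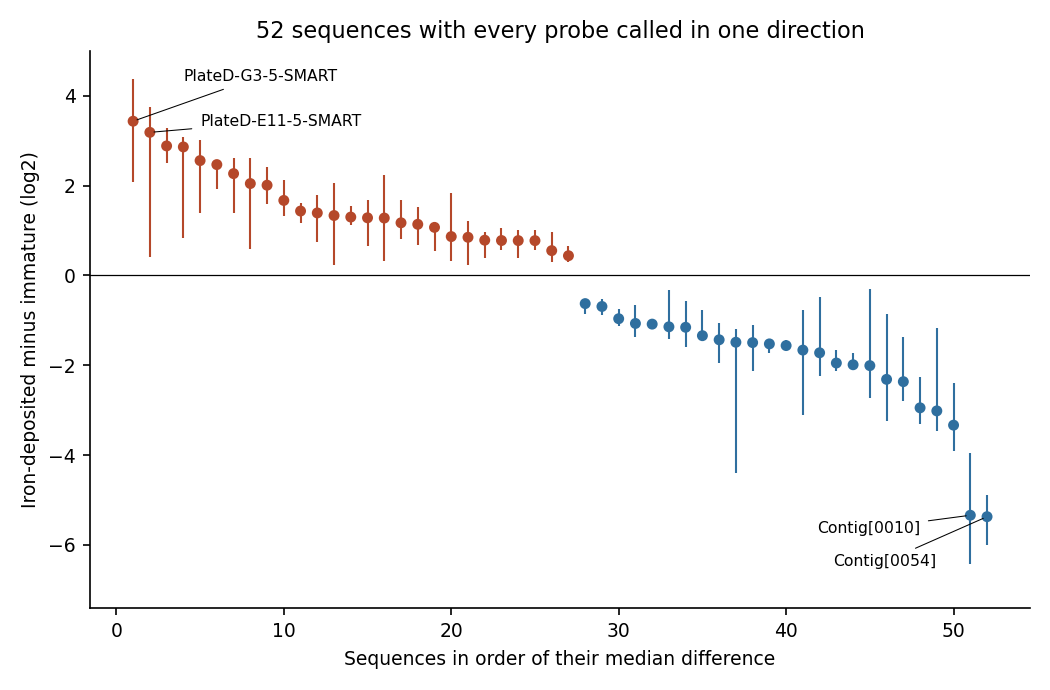
The 52 sequences whose probes were all called in one direction are ordered along the x axis by the median over their probes of the iron-deposited minus immature difference (y axis, log2). Points are medians and lines run from the lowest to the highest probe; the 27 higher sequences (red) reach a median of 3.43 and the 25 lower ones (blue) reach −5.37.

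The largest rise was on PlateD-G3-5-SMART, a clone of 830 nt with 5 probes. The mean of its probes was 1.53, 1.40, 1.66 and 1.64 in iron-deposited replicates 1 to 4, against −2.06, −1.78, −1.89 and −1.83 in immature replicates 1 to 4. The sections did not overlap. It averaged 1.56 ± 0.12 in iron-deposited and −1.89 ± 0.12 in immature teeth (SD, n = 4 each), a difference of 3.45 (SE 0.08), or 10.9-fold in normalized brightness (limma, adjusted p = 2.49e-15). The immature level is near the bottom of the scale, so that this is no measure of the fold in RNA. The pairs of equal replicate number gave 3.17 to 3.59, and without the disputed arrays the difference was 3.47. Its strongest and weakest probes were these.

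PlateD-G3-5-SMART bases 577-611: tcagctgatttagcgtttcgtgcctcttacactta
PlateD-G3-5-SMART bases 325-359: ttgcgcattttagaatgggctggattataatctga

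The probe at 577-611 differed by 4.37 (SE 0.17). In the deposited values, which are multiples of the array mean, it read 4.72, 4.46, 5.67 and 7.84 in iron-deposited teeth, against 0.304, 0.253, 0.202 and 0.269 in immature teeth. The probe at 325-359 differed by 2.07 (SE 0.15), with −0.13, −0.36, 0.17 and 0.28 in iron-deposited and −2.18, −2.00, −2.01 and −2.15 in immature teeth. The other 3 probes, at 151-186, 273-307 and 751-785, differed by 3.43, 4.06 and 3.30, so that all 5 were separated and past 4-fold. Immature teeth differed from foot muscle by −0.12 (limma, adjusted p = 0.211), and calcium-deposited teeth averaged −0.19 ± 0.14 (SD, n = 4).

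PlateD-E11-5-SMART, a clone of 583 nt with 5 probes, was the other leading rise. Its mean was 0.89, 1.001, 1.25 and 1.24 in iron-deposited teeth, against −1.44, −1.56, −1.45 and −1.52 in immature teeth. It averaged 1.10 ± 0.18 in iron-deposited and −1.49 ± 0.06 in immature teeth (SD, n = 4 each), without overlap, a difference of 2.59 (SE 0.11), or 6.02-fold in normalized brightness (limma, adjusted p = 5.54e-12). Without the disputed arrays the difference was 2.51. Unlike the first clone, it was higher still in calcium-deposited teeth, at 1.57 ± 0.29 (SD, n = 4), by 0.48 over iron-deposited teeth (limma, adjusted p = 0.00252), and foot muscle averaged −1.47. Its strongest probe is shown with an overlapping pair that differed in size. Capitals mark the 10 bases shared by that pair and, at the end of the last sequence, the 2 bases shared with the probe at 463-497.

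PlateD-E11-5-SMART bases 246-282: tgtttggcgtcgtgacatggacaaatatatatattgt
PlateD-E11-5-SMART bases 405-439: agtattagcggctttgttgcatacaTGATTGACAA
PlateD-E11-5-SMART bases 430-464: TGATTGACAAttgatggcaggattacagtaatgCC

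The probe at 246-282 differed by 3.74 and read 5.65, 5.06, 6.18 and 6.50 times the array mean in iron-deposited teeth, against 0.546, 0.358, 0.343 and 0.376 in immature teeth. The probe at 405-439 differed by 3.18, with 1.35, 1.77, 1.71 and 2.07 in iron-deposited and −1.48, −1.50, −1.42 and −1.43 in immature teeth. The probe beside it, at 430-464, differed by only 0.40 (SE 0.13, limma, adjusted p = 0.029), with −1.37, −1.43, −1.26 and −1.38 in iron-deposited and −1.69, −1.83, −1.69 and −1.85 in immature teeth. Its arrays were separated, but its call was lost in 11 of 23 alternative analyses. Among these was the fit without the disputed arrays. There the clone would not pass the strict rule, which asks that every probe be called. The probes at 289-323 and 463-497 differed by 3.53 and 2.09.

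Contig[0054], of 819 nt with 4 probes, fell the most. The mean of its probes was −1.50, −1.61, −1.48 and −1.67 in iron-deposited teeth, against 3.63, 4.09, 3.89 and 3.76 in immature teeth. All 4 iron-deposited arrays lay more than 5 below the lowest immature array. It averaged −1.57 ± 0.09 in iron-deposited and 3.84 ± 0.19 in immature teeth (SD, n = 4 each), a difference of −5.41 (SE 0.09), 42.5-fold lower in normalized brightness (limma, adjusted p = 3.72e-17). The replicate pairs gave −5.14 to −5.70, and without the disputed arrays the difference was −5.28. These are its probes with the largest and the smallest difference.

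Contig[0054] bases 153-187: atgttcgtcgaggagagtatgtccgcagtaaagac
Contig[0054] bases 415-450: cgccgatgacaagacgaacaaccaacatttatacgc

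At 153-187 the deposited values were 0.506, 0.438, 0.292 and 0.257 times the array mean in iron-deposited teeth, against 25.4, 36.2, 33.1 and 31.1 in immature teeth. The log2 difference was −6.01 (SE 0.11). At 415-450 it was −4.89 (SE 0.09), and the probes at 633-667 and 673-709 gave −5.76 and −4.98, so that the 4 probes differed among themselves by little beside the size of the fall. Iron-deposited teeth differed from foot muscle by 0.12 (limma, adjusted p = 0.202), and calcium-deposited teeth averaged −1.63 and foot muscle −1.69. Its high level was thus seen in immature teeth, of the 4 tissues.

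Contig[0010], of 1697 nt with 5 probes, followed. Its mean was −1.02, −1.31, −1.21 and −1.26 in iron-deposited teeth, against 3.99, 3.93, 4.34 and 4.05 in immature teeth. It averaged −1.20 ± 0.12 in iron-deposited and 4.08 ± 0.18 in immature teeth (SD, n = 4 each), without overlap, a difference of −5.28 (SE 0.13), 38.9-fold lower in normalized brightness (limma, adjusted p = 2.50e-15). Without the disputed arrays the difference was −5.34. Calcium-deposited teeth averaged −1.28 and foot muscle −1.35, and the iron-deposited level was 0.15 above that of foot muscle (limma, adjusted p = 0.294). Its last 3 probes along the sequence overlap, each with the next, with the shared bases (17 and 13) in capitals.

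Contig[0010] bases 1258-1292: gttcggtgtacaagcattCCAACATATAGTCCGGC
Contig[0010] bases 1276-1312: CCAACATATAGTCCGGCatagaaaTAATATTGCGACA
Contig[0010] bases 1300-1336: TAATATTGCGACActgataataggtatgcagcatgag

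These probes differed by −6.44, −3.94 and −5.34 in that order, so that neighbours on the same stretch differed in size while all fell. The probe at 1258-1292 read 1.47, 0.823, 0.778 and 0.677 times the array mean in iron-deposited teeth, against 46.9, 69.6, 70.3 and 58.4 in immature teeth. The probe at 1276-1312 had normalized values of −1.74, −1.98, −1.86 and −1.91 in iron-deposited and 2.20, 1.87, 2.14 and 2.07 in immature teeth. The brightest immature spot of the contig was at 62804 units, below saturation. The probes upstream, at 873-907 and 952-987, gave −5.93 and −4.76.

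Another 2 sequences fell past 8-fold by the median of their probes, and they are named after their values were seen. Contig[0067] averaged −1.55 ± 0.08 in iron-deposited and 1.75 ± 0.10 in immature teeth (SD, n = 4 each), a difference of −3.30 (SE 0.07), with probes between −2.40 and −3.90. The clone plateD-C11-5SMART-primer averaged −1.56 ± 0.04 in iron-deposited and 1.19 ± 0.06 in immature teeth (SD, n = 4 each), a difference of −2.76 (SE 0.05), with probes between −1.17 and −3.46. In both, calcium-deposited teeth (−1.46 for the contig and −1.55 for the clone) and foot muscle (−1.31 and −1.34) lay near the iron-deposited level. Without the disputed arrays the differences were −3.25 and −2.76. The strongest and weakest probe of each are shown.

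Contig[0067] bases 273-307: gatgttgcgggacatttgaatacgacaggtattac
Contig[0067] bases 452-486: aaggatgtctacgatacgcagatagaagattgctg
plateD-C11-5SMART-primer bases 415-449: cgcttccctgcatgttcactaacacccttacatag
plateD-C11-5SMART-primer bases 665-699: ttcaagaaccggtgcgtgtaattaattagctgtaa

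Contig[0067] at 273-307 had −1.46, −1.53, −1.67 and −1.80 in iron-deposited teeth, against 1.98, 2.35, 2.43 and 2.38 in immature teeth. The clone at 415-449 had −0.62, −0.30, −0.46 and −0.36 in iron-deposited teeth, against 3.19, 3.16, 2.94 and 2.82 in immature teeth. At 665-699 the clone had −2.03, −2.14, −2.02 and −2.03 in iron-deposited teeth, near the bottom of the scale, against −0.82, −0.94, −0.89 and −0.88 in immature teeth. The sections were separated at every probe of both sequences.

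For a single value with 4 arrays against 4, an exact permutation test (two-sided) cannot give a p below 0.0286, from 70 arrangements. Each of the 6 sequences past 8-fold by probe median reached that value, which was fixed in advance. They were chosen with their arrays separated at every probe, so that the test adds no support. With the scanner files as recorded the immature group takes in arrays that lie apart from the others, and the differences were 2.68 for PlateD-G3-5-SMART (limma, adjusted p = 0.00115), 1.06 for PlateD-E11-5-SMART (adjusted p = 0.565), −2.59 for Contig[0054] (adjusted p = 0.393), −2.59 for Contig[0010] (adjusted p = 0.378), −1.70 for Contig[0067] (adjusted p = 0.32) and −1.43 for plateD-C11-5SMART-primer (adjusted p = 0.329). The call of the first clone alone, among these 6, was kept under that assignment.

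**Figure D3:**
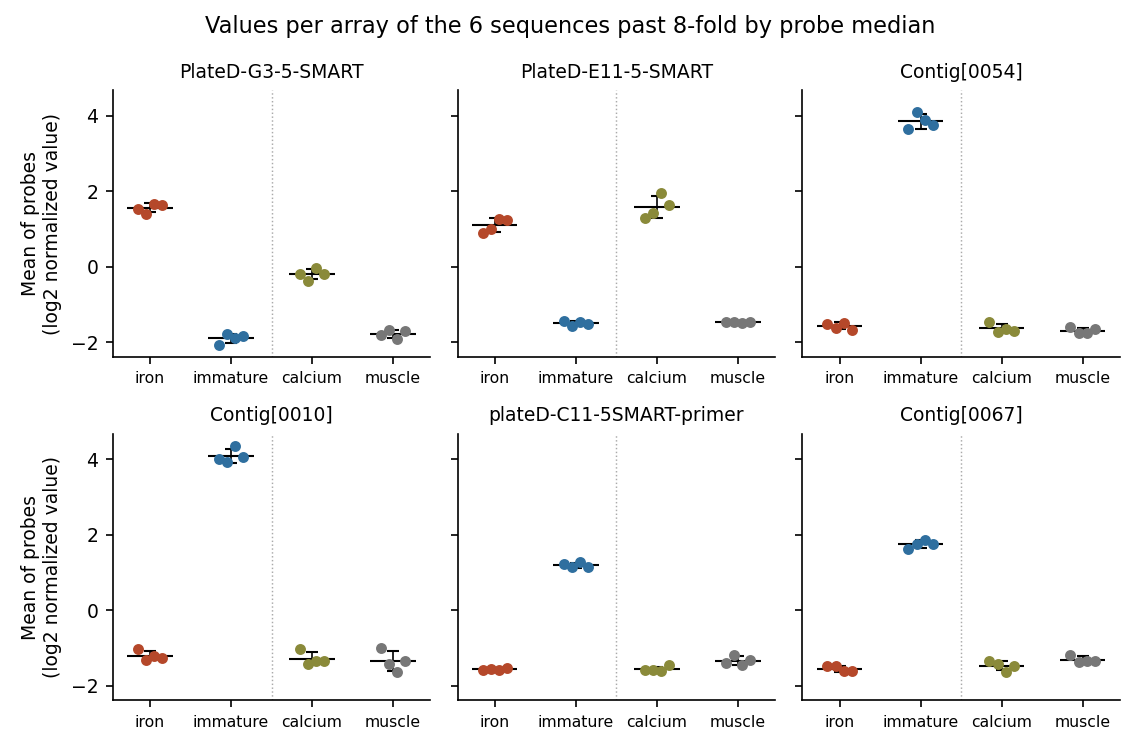
Mean over the probes of each sequence (y axis, log2 normalized value) in each array, by tissue along the x axis, for the 6 sequences past 8-fold by the median of their probes; bars are the mean and SD of 4 arrays, and the dotted line sets off the tissues outside the comparison. The 2 clones that rose average 1.56 and 1.10 in iron-deposited teeth against −1.89 and −1.49 in immature teeth, and the 4 that fell average 1.19 to 4.08 in immature teeth.

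The levels in foot muscle, a tissue outside the radula, place the 52 sequences. Of the 25 lower sequences, 17 had an iron-deposited mean within 2-fold of the foot muscle mean, 2 had an immature mean within that distance and 21 a calcium-deposited mean. Of the 27 higher sequences, the iron-deposited mean was within 2-fold of foot muscle in 6, the immature mean in 22 and the calcium-deposited mean in 18. Over all 493 sequences these shares were 87.6% for iron-deposited, 88.6% for immature and 93.3% for calcium-deposited teeth. The choice of sequences with a wide gap between the sections puts one of the sections away from foot muscle, and the shares in the section where they were low are below those over all sequences, so that nothing is read from these counts.

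Sequences that were higher in calcium-deposited teeth or in foot muscle are named after their values were seen. Among the 27 higher sequences, calcium-deposited teeth were above iron-deposited teeth in 3, PlateD-E11-5-SMART, Plate-B-C9-5-SMART and Contig[0222]. Plate-B-C9-5-SMART averaged 0.93 ± 0.13 in iron-deposited and −0.76 ± 0.09 in immature teeth (SD, n = 4 each), a difference of 1.70 (SE 0.07), with 1.43 in calcium-deposited teeth and −1.49 in foot muscle. Contig[0222] averaged −0.80 ± 0.09 in iron-deposited and −1.68 ± 0.14 in immature teeth (SD, n = 4 each), a difference of 0.88 (SE 0.07), with 0.96 in calcium-deposited teeth and 2.73 ± 0.11 in foot muscle. That contig was brighter in muscle than in any section of the radula. Foot muscle was above both sections also for Plate-D-E10-5-SMART, at −0.25 in iron-deposited and −1.04 in immature teeth against 0.09 in muscle. Of the lower sequences this held for Contig[0097], at 0.37 ± 0.10 in iron-deposited and 2.27 ± 0.06 in immature teeth (SD, n = 4 each) against 2.61 in muscle. The 3 sequences that were highest in muscle thus went in both directions. Whether muscle taken with a section has a part in them was not tested.

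The calcium-deposited and foot muscle arrays did not enter the iron-deposited and immature means, so that their difference can be set beside the comparison. All 4 tissues share the normalization and the estimate of the spread, however. Calcium-deposited replicates 2 and 4 are disputed arrays, and the shares below were not drawn without the disputed arrays. Of the 85 sequences higher in iron-deposited teeth, 40 (47.1%) were called higher in calcium-deposited teeth than in foot muscle and 13 (15.3%) lower, where the shares over all sequences were 12.8% and 30.4%. Of the 64 lower sequences, 13 (20.3%) were called higher and 19 (29.7%) lower. Among the 52 strict ones, 18 of the 27 higher were called higher and 2 lower, and 7 of the 25 lower were called higher and 5 lower. The median difference, calcium-deposited minus muscle, was 0.13 for the 85, −0.06 for the 64 and −0.09 for all sequences. Calls between the sections were more frequent at brighter probes, as given below. The shares over all sequences were not matched for brightness, and the gap between shares was not tested.

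The calcium-deposited mean lay between the iron-deposited and immature means for 44 of the 85 higher sequences, above both for 25 and below both for 16. For the 64 lower sequences it lay between in 31, above both in 8 and below both in 25. Over all 493 sequences the counts were 166 between, 234 above both and 93 below both. Choosing sequences with a wide gap favours a place in between, so that no direction is read from these counts.

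Probes on one sequence mostly moved in the same direction but not by the same amount. Some probe was called on 174 sequences, only higher on 93, only lower on 78 and in both directions on 3, while 319 sequences had no called probe. Among sequences with 5 probes, all 5 were higher in 18 and all 5 lower in 19, and a single probe was called, with no other, in 14 (higher) and 22 (lower). Of the 686 probes on called sequences, 473 were called themselves. Their median level was −0.47, against −1.53 for the 213 that were not. The SD of the difference among probes of one sequence had a median of 0.28 on called sequences and 0.08 on the others.

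The 3 sequences with calls in both directions are named after their values were seen. They are shown because the sign of the difference depended on the stretch of sequence that the probe covers. In Contig[0192] the capitals mark the 11 bases shared by the overlapping pair of probes.

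Contig[0192] bases 21-55: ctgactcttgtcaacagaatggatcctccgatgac
Contig[0192] bases 409-443: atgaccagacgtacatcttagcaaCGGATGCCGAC
Contig[0192] bases 433-467: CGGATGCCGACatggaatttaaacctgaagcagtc
Contig[0254] bases 289-323: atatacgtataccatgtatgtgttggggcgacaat
Contig[0254] bases 477-511: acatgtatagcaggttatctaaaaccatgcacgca
Plate-C-D1-5-SMART bases 97-131: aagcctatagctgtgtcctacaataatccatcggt
Plate-C-D1-5-SMART bases 577-611: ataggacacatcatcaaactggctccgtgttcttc

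In Contig[0192] the overlapping probes at 409-443 and 433-467 rose by 0.79 and 0.63, and those at 21-55 and 62-96 fell by 0.37 and 0.19. The probe at 409-443 had −0.07, −0.39, −0.34 and −0.04 in iron-deposited teeth, against −0.86, −1.04, −0.94 and −1.16 in immature teeth. The probe at 21-55 had −1.80, −1.70, −1.62 and −1.67 in iron-deposited teeth, against −1.50, −1.23, −1.16 and −1.41 in immature teeth. The arrays were separated at both, in opposite directions. The lower calls were lost in 3 of 23 alternatives at 21-55 and in 14 of 22 at 62-96. The mean over all probes differed by 0.17 (limma, adjusted p = 0.011; exact permutation test, p = 0.0571).

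Contig[0254] had a mean difference of −0.0021 (limma, adjusted p = 0.99), which hid a fall of 0.64 at 477-511 and a rise of 0.25 at 289-323 (limma, adjusted p = 0.0416). The call at 289-323, on which the opposite signs of this contig rest, was lost in 13 of 23 alternatives, with adjusted p up to 0.794 (limma). The probe at 477-511 had −2.13, −2.12, −2.10 and −2.17 in iron-deposited teeth, near the bottom of the scale, against −1.50, −1.52, −1.46 and −1.49 in immature teeth. In Plate-C-D1-5-SMART the probe at 97-131 rose by 0.52, with 1.83, 1.80, 2.12 and 1.98 in iron-deposited teeth, against 1.21, 1.55, 1.59 and 1.31 in immature teeth. This call, the only higher one on the clone, was lost under 4 of 23 alternatives, all of them scalings, with 0.27 (SE 0.16; limma, adjusted p = 0.323) under loess. The other 4 probes of this clone fell by 0.72, 0.79, 0.80 and 1.09. The last of these, at 577-611, had 0.65, 0.26, −0.03 and 0.06 in iron-deposited teeth, against 1.49, 1.27, 1.31 and 1.21 in immature teeth. The mean over its 5 probes differed by −0.57 (limma, adjusted p = 2.01e-06).

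**Figure D4:**
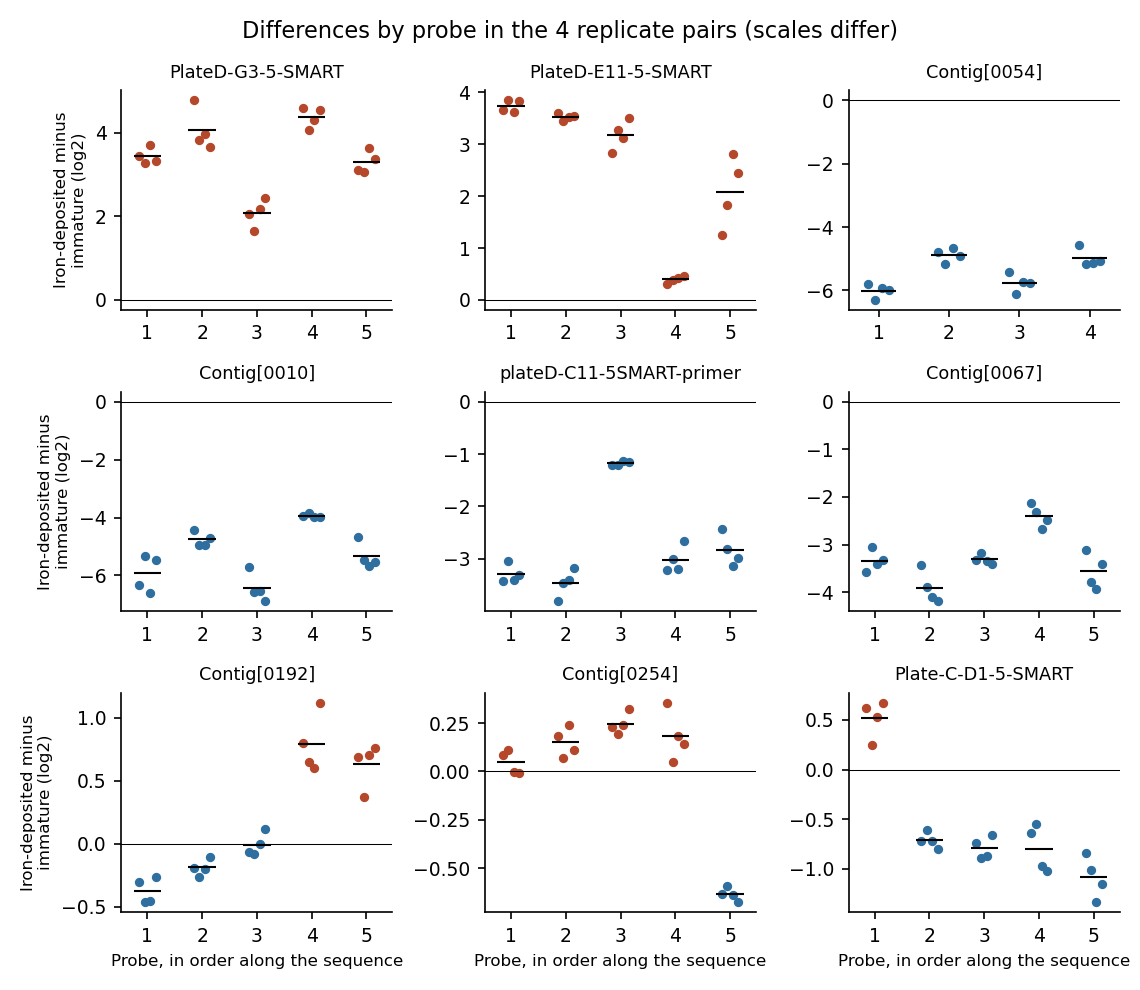
Difference between iron-deposited and immature arrays of the same replicate number (y axis, log2, scales differ by panel) at each probe in order along the sequence (x axis), for the 6 sequences past 8-fold by probe median and the 3 with calls in both directions; points are the 4 replicate pairs and bars their mean. In PlateD-E11-5-SMART the fourth probe stands at 0.40 beside neighbours at 3.18 and 2.09, and the bottom row shows probes on both sides of 0.

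Calls were more frequent on contigs than on clones. Of 495 probes on contigs, 22.8% were higher and 22.6% lower in iron-deposited teeth. Of 1745 probes on clones, 9.74% were higher and 6.36% lower. Contig probes were also brighter, with a median level of −0.79 against −1.58 for clone probes. Over 4 equal bins of all probes by mean level, from the dimmest to the brightest, 1.43%, 6.79%, 17.7% and 24.6% were higher and 2.68%, 6.25%, 13.8% and 17.1% lower. In the brightest bin 27.6% of contig probes were higher and 24.1% lower, against 22.6% and 12.2% of clone probes. In the third bin these shares were 26.9% and 28.4% against 14.8% and 9.15%. In the second they were 13.3% and 14.5% against 5.66% and 4.82%. In the dimmest, with 46 contig probes, they were 4.35% and 13% against 1.17% and 1.75%. Contigs thus had the larger shares in every bin. In the brightest bin the gap between contigs and clones was wider among the lower calls. These gaps were not tested, since probes share targets.

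**Figure D5:**
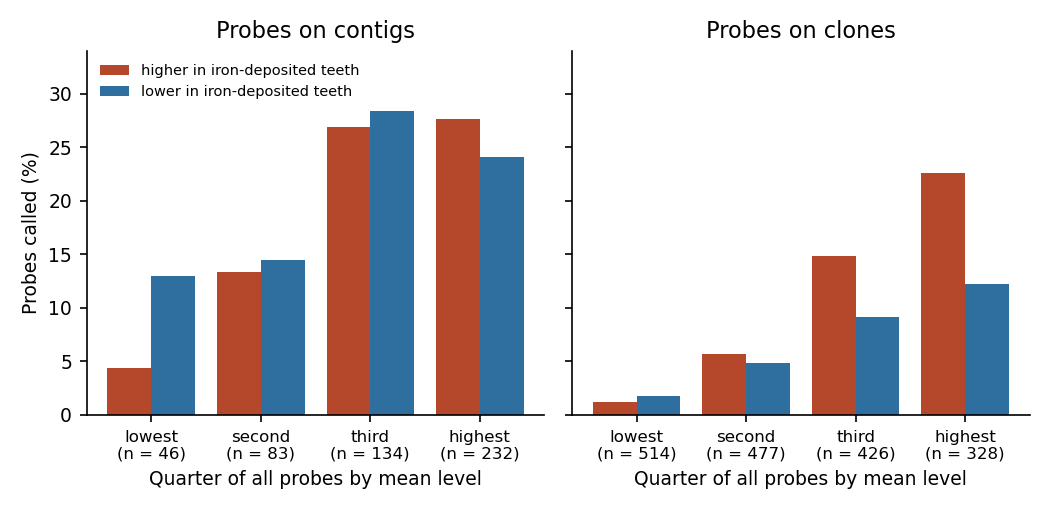
Share of probes called higher (red) and lower (blue) in iron-deposited teeth (y axis, percent) in 4 bins of all probes by mean level (x axis), for probes on contigs (left) and on clones (right), with the number of probes under each bin. In the brightest bin contigs reach 27.6% higher and 24.1% lower, and clones 22.6% and 12.2%.

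The called probes had few other features in common. The median GC content was 42.9% for higher probes, 42.9% for lower probes and 41.7% for the rest, and the median relative position of a probe along its sequence was 0.525, 0.531 and 0.489. By clone plate the share of higher probes ran from 2.54% on plate E to 14.3% on plate D, and the share of lower probes from 1.65% on plate A to 9.17% on plate D. On all 7 plates but E the higher share was the larger. Probes of 11 pairs of sequences shared a run of 20 bases, all on the same strand, and none of them lay on the 9 sequences described by name for their size or mixed signs.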

How the data were processed

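Values came from the authors' deposited value table, whose values are a ratio. Set against the scanner files, each was the mean foreground intensity of a probe over the mean of its array, uncentred and without background correction, for all 16 arrays. Per the file headers, the scanner files held mean and median foreground intensity on a linear scale. The scanning software is not given in the sources used here. Sample identity followed the value table. The log2 ratios were quantile-normalized over the 16 arrays in R 4.3.3 with limma 3.58.1 and fitted with a mean per tissue (lmFit, eBayes, two-sided). Benjamini-Hochberg adjustment ran over 2240 probes, or over 493 sequences for means of probes. Levels were compared between probes only in groups: called and uncalled probes, contig and clone probes, and bins by mean level. Such levels are brightness and not amounts of RNA. The code of the fit was tried on simulated data with independent noise at each probe and array. Real arrays of equal replicate number shared deviations, so that the trial is a check of the code and not of the p-values.

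Named sequences were the 2 highest and 2 lowest by median difference among those with 3 or more probes, all called and separated in one direction. Small groups outside the rule are marked where named. The comparison, the sequences and the alternatives were chosen with earlier results of these data known.

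Deviations from the section means correlated at 0.671, 0.218, 0.619 and 0.360 between arrays of equal replicate number (different numbers gave −0.441 to 0.345). All 4 values were above 0.1, and the numbers were also fitted as a block. A value above 0.1 does not by itself show pairing, since different numbers reached 0.345. For replicate number 2 the value, 0.218, lay within the range of different numbers. The main fit took no account of the numbers. The labels do not say whether pools of one number held the same animals. If the 4 pools of a section held different animals, 3 each, they took in all 12. Both sections then came from the same animals, which the main fit does not model. The design text describes the pools of a section as biological replicates, and p-values measure the spread between these pools. Other scalings, scanner columns, array sets and blocks were tried as alternatives.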

Additional observations from a re-analysis of the deposited data

Results flagged for a closer look

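Among 106 groups of 4 arrays, 8 had 1 array farther from the other 3 than the critical value of Dixon's test (gap over range) allows, and chance marks about 1 in 20 groups. For PlateD-G3-5-SMART at 151-186, immature replicate 3 was at −2.15, with the others at −1.97 to −1.94. For plateD-C11-5SMART-primer at 225-259, iron-deposited replicate 4 was at −1.54 (others −1.63 to −1.62) and immature replicate 2 at 1.42 (others 1.77 to 1.80). For the same clone at 665-699, iron-deposited replicate 2 was at −2.14 (others −2.03 to −2.02). For Contig[0067] at 273-307, immature replicate 1 was at 1.98 (others 2.35 to 2.43). For Contig[0192] at 62-96, immature replicate 4 was at −1.93 (others −1.78 to −1.76), and in the mean over that contig's probes iron-deposited replicate 2 was at −1.32 (others −1.20 to −1.18). For Plate-C-D1-5-SMART at 273-311, immature replicate 3 was at 0.32 (others 0.06 to 0.08). Immature replicates 2 and 4 are disputed arrays.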

How the results depend on the processing

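The main count was 506 probes (283 higher, 223 lower) and 149 sequences (85 and 64). Without further scaling 386 probes (242 and 144) and 96 sequences were called, 35 of them lower, and the share of higher probes was 62.7% against 55.9%. Scaling by the 75th percentile moved the median difference of all probes to −0.13 and called 402 probes and 98 sequences, 52 of them higher. Scanner files as recorded called 178 probes (153 and 25) and 58 sequences (45 and 13), 86% of the probes higher, and 177 of the 178 were among the 506 in the same direction. Under that assignment the mean of Plate-C-D1-5-SMART (0.067, limma, adjusted p = 0.963) and its probe at 273-311 (0.0022, adjusted p = 1) changed sign, and 14 of the 19 probes of the first 4 named sequences lost their call. In the other settings at most 1 of the 19 did, at 430-464 of PlateD-E11-5-SMART. With the replicate block, for arrays paired by number, 632 probes (337 and 295) and 185 sequences were called, or 684 probes and 193 sequences over the 8 arrays alone. The block ended no call on a sequence named here. Leaving out 1 array at a time gave 478 to 498 probes (268 to 281 higher, 209 to 220 lower) and 137 to 149 sequences (78 to 88 and 58 to 64). Median scaling (408), loess (525), normexp (511), median foreground (510), a slide sector block (512), array weights (588) and the 8 arrays alone (528) stayed within 1.5 times the count of probes. The mean of Contig[0192] lost its call in 7 of 23 settings, its probe at 62-96 in 14 of 22, the probe of Contig[0254] at 289-323 in 13 of 23 and that of Plate-C-D1-5-SMART at 97-131 in 4 of 23. Without background values, changes of dim probes are understated.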
